A study of Mus musculus with 6 samples.

Results

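The mRNAs of 10 Eph receptor and ephrin genes, called the members below, were followed across 6 libraries of mouse chondrocytes given TGF-alpha, which activates the epidermal growth factor receptor (EGFR), with or without gefitinib, which blocks the kinase of that receptor. The members were taken by name from a table of 44788 genes: the 6 receptors Epha2, Epha3, Epha4, Ephb2, Ephb3 and Ephb4, and the 4 ligands Efna1, Efna5, Efnb1 and Efnb2. All 10 passed the filter on low counts, which 15362 genes of the table passed. The chondrocytes came from the femoral epiphysis of C57BL/6 mice, given as postnatal day 1 in the sample characteristics, and all 6 cultures held DMEM/F12 with 10% FBS and 0.1% DMSO. There were 2 libraries in each of 3 groups: control, which received vehicle for 48 h; TGF-alpha, which received transforming growth factor alpha at 10 ng/ml for 48 h; and TGF-alpha plus gefitinib, which received 10 µM gefitinib for 30 min and then gefitinib with the same TGF-alpha for 48 h. The series design names PBS as the control where the treatment protocol names DMSO, and it calls the cells P2, a term it does not explain, where the characteristics give day 1. A group with gefitinib alone was not analysed here, so an action of the drug apart from the added ligand cannot be told apart from inhibition of the ligand's effect.

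Eph receptors are the largest family of receptor tyrosine kinases, and their ligands, the ephrins, sit on the surface of neighbouring cells. Ephrin-A proteins are held in the membrane by a lipid anchor and bind mainly EphA receptors, whereas ephrin-B proteins span the membrane and bind mainly EphB receptors. Contact sends a signal into the receptor-bearing cell and a reverse signal into the ephrin-bearing cell, and both act on the cytoskeleton and on adhesion. In the skeleton the pathway is known for joint and limb patterning and for communication between osteoclasts and osteoblasts through ephrin-B2 and EphB4.

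Total counts were between 12317407 and 16096263 per library. Counts of replicate libraries varied beyond sampling noise (chi-square over degrees of freedom of 3.03 to 3.83). The sources do not say whether replicates were separate cultures or animals, so the p-values reflect the spread among these libraries alone, and that spread may be technical. Levels below are CPM, that is, reads per library normalized to a fixed total with TMM factors, and "called" means an adjusted p under 0.05. Of 13 chondrocyte markers 12 were found by symbol and all 12 were tested, and their summed level was 75008 to 80116 CPM in control, 38148 to 39376 with TGF-alpha and 65140 to 68035 with TGF-alpha plus gefitinib. Of 15 endothelial markers, 12 had at most 10 counts in every library, among them Cdh5, Tie1, Emcn, Cldn5 and Sox17 at 0.

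Per length of exon, Epha2 had the highest mRNA level of the family in every library, and Epha3 and Epha4 the lowest levels among the members. Epha2 stood at 34.8 ± 0.00254 CPM per kilobase in control (mean ± SD, n = 2). It was followed by Efnb1 at 18.9 ± 0.707 and Ephb4 at 18.3 ± 1.01, whose control libraries overlapped each other. Efna1 at 14.4 ± 0.787 and Efnb2 at 14.1 ± 1.01 also overlapped. Ephb3 (8.20 ± 0.161), Efna5 (5.21 ± 0.656) and Ephb2 (3.13 ± 0.436) were each separated from the next lower member in the control libraries. Epha4 (0.940 ± 0.178) and Epha3 (0.623 ± 0.0208) were lowest. These lengths are unions of all annotated exons, so a gene with long alternative exons, such as Ephb2 with 12608 bases, has a lower level per length than with its main transcript alone.

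The other 12 Eph and ephrin genes of the mouse were also in the table. Of these 7 were tested and 5 were not: Epha6 and Epha10 had 0 counts in every library, and Ephb1, Epha8 and Epha5 reached at most 2, 3 and 8 counts. Among the 7 tested, only Ephb6, a receptor whose kinase domain is inactive, was called in any comparison. Per length Ephb6 stood at 14.5 ± 1.08 CPM per kilobase in control, where its libraries overlapped those of Efna1 and Efnb2.

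**Figure D1:**
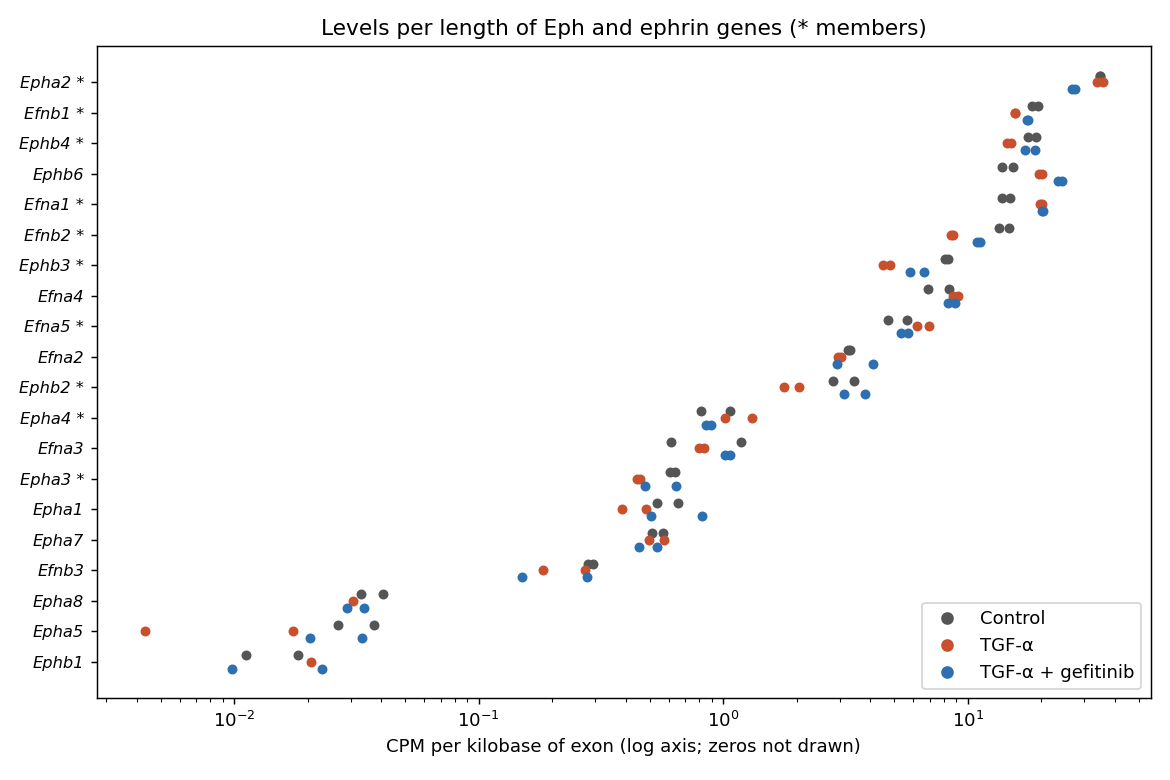
Level of each Eph and ephrin gene per kilobase of exon (CPM per kilobase, log axis), 1 point per library, coloured by group; genes are ordered by their control mean and members carry an asterisk. Epha2 lies at the top in all 6 libraries, and Epha6 and Epha10, with no counts, are not drawn.

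The first comparison set TGF-alpha against control, for the effect of EGFR activation named in the series title. All 3 EphB members and both ephrin-B members were lower with TGF-alpha, both ephrin-A members were higher, and none of the 3 EphA members was called. Ephb3 fell the most, 1.76-fold, followed by Ephb2 at 1.65-fold and Efnb2 at 1.63-fold, while Efna1 rose 1.39-fold. Thus 5 of 10 members were called lower and 2 higher, where 14.0% of all 15362 tested genes were called lower and 15.9% higher, or 29.9% in all. With library totals and no scaling factor, which called the same number of members, the split over all genes was 3034 higher and 1605 lower in place of 2446 and 2154. The median log2 fold change was -0.29 over the members and 0.00 over all tested genes. The members were chosen with earlier results of these data known, so setting them beside all genes is a description and not a test. Over all 17 tested Eph and ephrin genes, 3 were called higher and 5 lower (47.1%), with a median log2 fold change of -0.15. Among the 7 that were not members, 1 was called (14.3%). The libraries of the 2 groups did not overlap for 8 of 10 members, against 64.1% of all tested genes. In bulk RNA, fewer cells of a type and less RNA per cell cannot be told apart.

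The receptors are taken first. Ephb3 (chromosome 16, 21204755 to 21223305 in GRCm38, plus strand) encodes a kinase receptor for B-type ephrins. It measured 53.7 and 55.2 CPM in the control libraries, 29.9 and 31.8 with TGF-alpha, and 44.0 and 38.5 with TGF-alpha plus gefitinib. The 3 groups did not overlap, with control highest, TGF-alpha lowest and the gefitinib group between them. The fall with TGF-alpha was 0.82 ± 0.09 on the log2 scale (SE; edgeR adjusted p = 3.45e-06).

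Ephb2 (chromosome 4, 136647539 to 136835988, minus strand), known for axon guidance and tissue boundaries, measured 35.6 and 43.4 CPM in control, 25.7 and 22.3 with TGF-alpha and 48.0 and 39.3 with TGF-alpha plus gefitinib. Both TGF-alpha libraries were below every other library, and the control and gefitinib libraries overlapped. The log2 fold change with TGF-alpha was -0.72 ± 0.12 (adjusted p = 0.000333).

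Ephb4 (chromosome 5, 137350109 to 137378669, plus strand) encodes a receptor for ephrin-B2 and is a marker of veins. Its libraries stood at 88.4 and 81.8 CPM in control, 67.2 and 70.1 with TGF-alpha and 87.8 and 79.9 with TGF-alpha plus gefitinib. The same 2 TGF-alpha libraries were lowest, and the change was smaller than in the other EphB members, at log2 -0.31 ± 0.07 (adjusted p = 0.0031). Its exons share 33 bases with Zan on the opposite strand, and Zan had at most 8 counts in any library. The exons of the other 9 members overlapped no other annotated gene.

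Epha2 (chromosome 4, 141301240 to 141329384, plus strand), a receptor for ephrin-A1, measured 162.8 in both control libraries, 167 and 159 with TGF-alpha, and 128 and 125 with TGF-alpha plus gefitinib, all in CPM. The TGF-alpha libraries lay on either side of the control libraries, and both gefitinib libraries lay below the other 4. The log2 fold change with TGF-alpha was 0.00 ± 0.05 (adjusted p = 0.976), with a 95% interval from -0.11 to 0.11.

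The other EphA members had the fewest counts of the 10. Epha3 (chromosome 16, 63543534 to 63864175) had 53 to 83 counts per library, at 5.54 and 5.29 CPM in control, 3.97 and 3.85 with TGF-alpha and 4.18 and 5.60 with TGF-alpha plus gefitinib. Epha4 (chromosome 1, 77367185 to 77515088), which can bind ephrins of both types, had 86 to 146 counts, at 8.59 and 6.56, 10.5 and 8.22, and 7.19 and 6.88 CPM in the same order. Both Epha3 libraries with TGF-alpha were below the control libraries, and those of Epha4 overlapped control. The 95% intervals of the log2 fold change with TGF-alpha were -0.96 to 0.02 for Epha3 and -0.09 to 0.72 for Epha4 (adjusted p = 0.147 and 0.245).

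Among the ligands, Efnb2 (chromosome 8, 8617434 to 8661242, minus strand), which encodes the arterial marker ephrin-B2, measured 101 and 91.7 CPM in control, 58.6 and 59.8 with TGF-alpha and 77.2 and 75.1 with TGF-alpha plus gefitinib. The 3 groups did not overlap and lay in the same order as for Ephb3. The fall with TGF-alpha was 0.70 ± 0.07 on the log2 scale (adjusted p = 1.19e-06).

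Efnb1 (chromosome X, 99136130 to 99148991, plus strand), the gene mutated in human craniofrontonasal syndrome, was at 66.8 and 63.4 CPM in control, 53.9 and 54.0 with TGF-alpha and 60.1 and 60.8 with TGF-alpha plus gefitinib. Again the groups did not overlap, with TGF-alpha lowest. The log2 fold change with TGF-alpha was -0.27 ± 0.07 (adjusted p = 0.00597), and the call was lost without control replicate 1 (adjusted p = 0.0632).

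Efna1 (chromosome 3, 89271733 to 89281142, minus strand), which encodes the ligand of EphA2, was at 27.3 and 25.3 CPM in control, 36.1 and 37.0 with TGF-alpha and 36.7 and 37.2 with TGF-alpha plus gefitinib. All 4 libraries with TGF-alpha, with or without the inhibitor, were above both control libraries. The rise with TGF-alpha was log2 0.48 ± 0.09 (adjusted p = 0.000742).

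Efna5 (chromosome 17, 62604184 to 62881317, minus strand), a guidance ligand for EphA receptors, was at 19.1 and 22.9 CPM in control, 27.9 and 24.9 with TGF-alpha and 22.9 and 21.6 with TGF-alpha plus gefitinib. The TGF-alpha libraries were highest and the other groups overlapped. The log2 fold change of 0.33 ± 0.11 had the largest adjusted p among the members called in this comparison (0.041). It was lost with DESeq2 (adjusted p = 0.149) and without control replicate 1 (0.297), TGF-alpha replicate 1 (0.256) or TGF-alpha replicate 2 (0.0556).

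**Figure D2:**
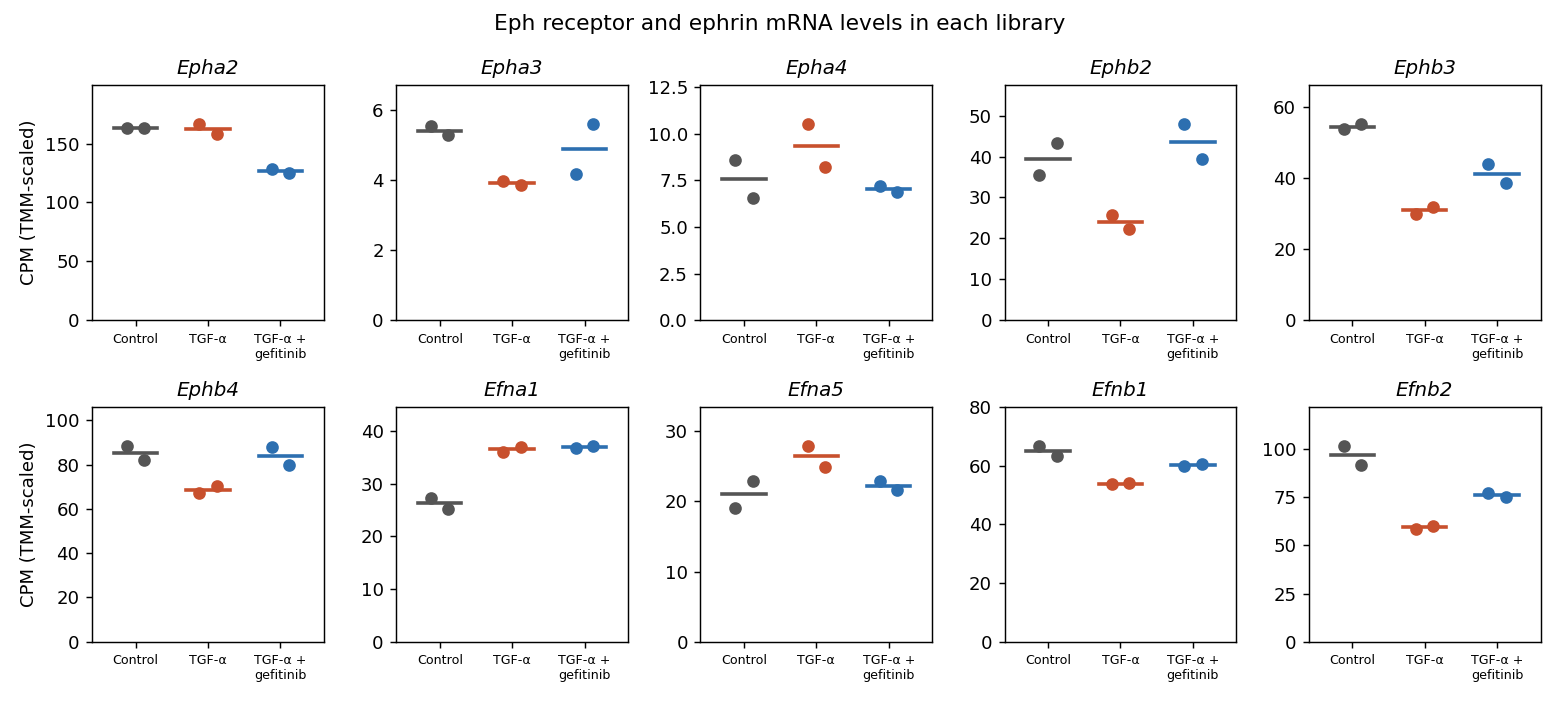
CPM of the 10 members in each library (vertical axis from 0, scaled per gene), with points for the 2 libraries of a group and a bar at their mean. Ephb2, Ephb3, Ephb4, Efnb1 and Efnb2 are lowest with TGF-alpha, Efna1 is high in both groups that received the ligand, and Epha2 is low in the gefitinib group.

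The second comparison set the gefitinib group against TGF-alpha alone, for the effect of the inhibitor on ligand-treated cells. It shares the TGF-alpha libraries with the first, so opposite signs in the 2 comparisons are not independent. With gefitinib all 3 EphB members and Efnb2 were higher and Epha2 was lower, and 5 members were not called. These 4 of 10 higher and 1 of 10 lower stand beside 17.0% higher and 16.9% lower among all tested genes, or 34.0% in all. Over all 17 tested Eph and ephrin genes, 5 were called higher and 1 lower (35.3%), near the share of all genes. The median log2 fold change was 0.23 over the members and 0.01 over all tested genes, and groups did not overlap for 9 of 10 members, against 65.8% of all tested genes.

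Ephb2 rose 1.82-fold with gefitinib, from 24.0 ± 2.37 to 43.7 ± 6.10 CPM (mean ± SD, n = 2 in each group; log2 0.87 ± 0.12 SE, edgeR adjusted p = 5.47e-05), the largest change of a member in any of the 3 comparisons. Ephb3 rose 1.34-fold (log2 0.42 ± 0.09, adjusted p = 0.00175) and Efnb2 1.29-fold (0.36 ± 0.07, adjusted p = 0.000721). Ephb4 rose 1.22-fold (0.29 ± 0.07, adjusted p = 0.00459), a call that was lost without TGF-alpha replicate 1 (0.0548) or TGF-alpha plus gefitinib replicate 1 (0.0704). The receptor that fell was Epha2, from 162.5 ± 5.66 to 126.9 ± 2.14 CPM, by 0.36 ± 0.05 on the log2 scale (adjusted p = 9.58e-05).

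Efna1 was level between these groups, at 36.5 ± 0.673 and 37.0 ± 0.321 CPM, with a 95% interval of the log2 fold change from -0.17 to 0.20 (adjusted p = 0.91). Efna5 and Efnb1 had log2 fold changes of -0.25 ± 0.11 and 0.16 ± 0.07 and missed the threshold (adjusted p = 0.108 and 0.0737). Epha4 (log2 -0.41 ± 0.19, adjusted p = 0.117) and Epha3 (0.31 ± 0.23, adjusted p = 0.332) were not called either.

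The last comparison, TGF-alpha plus gefitinib against control, showed which members stood apart from vehicle-treated cells when ligand and inhibitor were given together. Efna1 was higher and Epha2, Ephb3 and Efnb2 were lower, and 6 members were not called. This is 1 of 10 higher and 3 of 10 lower, beside 5.27% higher and 4.26% lower among all tested genes, or 9.52% in all. With library totals and no scaling factor the split over all genes was 1332 higher and 388 lower in place of 809 and 654, and the members' counts stayed at 1 and 3. The libraries of these groups did not overlap for 5 of 10 members, against 52.1% of all tested genes. The median log2 fold change was -0.10 over the members and 0.00 over all tested genes. Over all 17 tested Eph and ephrin genes, 2 were called higher and 3 lower (29.4%).

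Efna1 was 1.41-fold above control (log2 0.49 ± 0.09 SE, edgeR adjusted p = 0.00244). Epha2 was 1.28-fold below it (log2 -0.36 ± 0.05, adjusted p = 0.000504). Ephb3 and Efnb2 were 1.32- and 1.27-fold below control (log2 -0.40 ± 0.08 and -0.34 ± 0.07, adjusted p = 0.00713 and 0.00398), so both lay between the control and TGF-alpha levels and differed from each by the test. The Ephb3 call was lost without control replicate 2 (adjusted p = 0.0785) or TGF-alpha plus gefitinib replicate 2 (0.0819), and the Efnb2 call without control replicate 1 (0.0753).

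Ephb2 and Ephb4 were not called against control, with 95% intervals of the log2 fold change from -0.10 to 0.39 and from -0.16 to 0.13. The interval was -0.25 to 0.03 for Efnb1 and -0.17 to 0.33 for Efna5. Those of Epha3 (-0.63 to 0.33) and Epha4 (-0.52 to 0.33) were the widest.

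**Figure D3:**
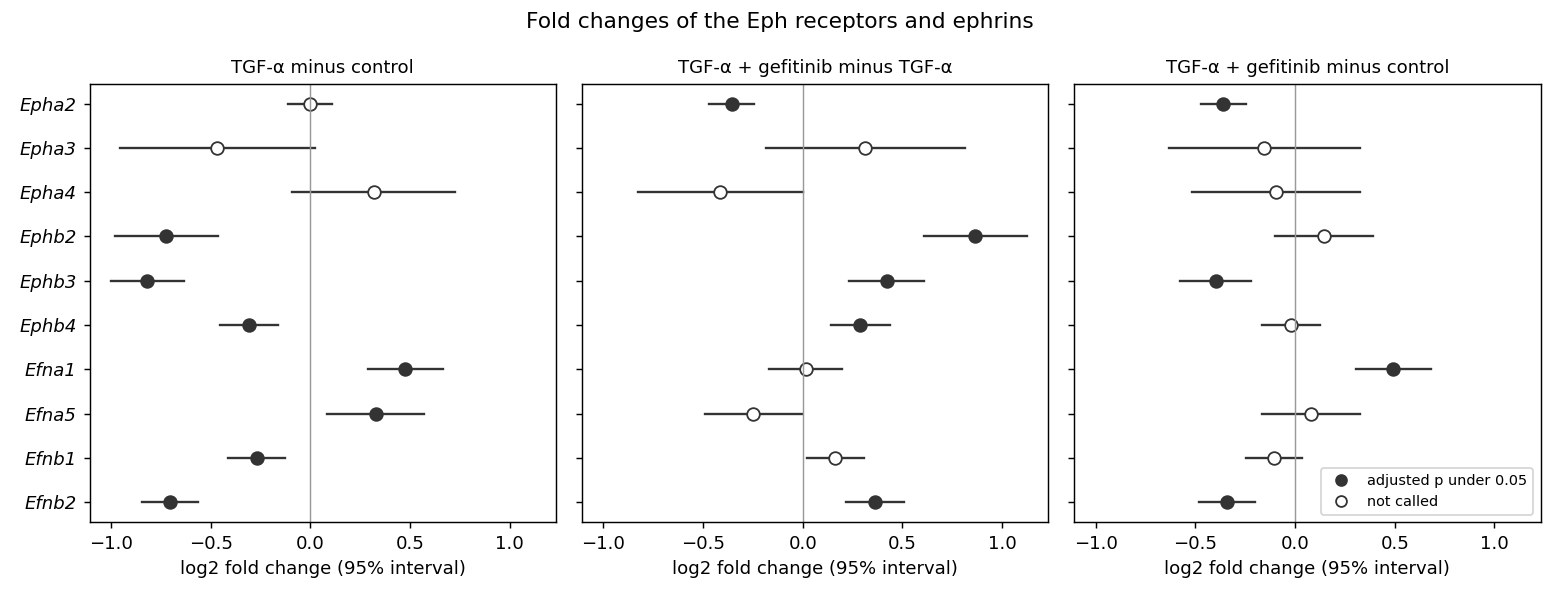
Log2 fold change (horizontal axis) of each member in the 3 comparisons, with its 95% interval as a line; filled points have an adjusted p under 0.05 in edgeR's quasi-likelihood test. Filled points of EphB and ephrin-B genes lie left of 0 in the first panel and right of 0 in the second, and Efna1 lies right of 0 in the first and last.

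Order of the members per length changed with treatment. Efna1 stood below Efnb1 and Ephb4 in control and above both with TGF-alpha, at 19.96 ± 0.368 against 15.6 ± 0.0314 and 14.8 ± 0.439 CPM per kilobase. It stayed above them with TGF-alpha plus gefitinib (20.2 ± 0.176, against 17.5 ± 0.139 and 18.1 ± 1.203). The receptor mRNA summed over all 14 Eph genes per length moved little, between 77.7 and 82.9 CPM per kilobase over the 6 libraries, and the ligand mRNA over all 8 ephrin genes between 62.8 and 68.1. The members alone, summed in CPM without length, were lower with TGF-alpha. Their receptors summed to 354.7 and 355.1 in control, 303.8 and 294.8 with TGF-alpha and 319.5 and 295.6 in the gefitinib group. Their ligands summed to 214.7 and 203.2, 176.4 and 175.8, and 196.9 and 194.6 in the same order. Within the sums per length the makeup differed by group.

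Epha2 made up 42.6% ± 0.222 of the receptor sum in control, 44.2% ± 0.802 with TGF-alpha and 33.4% ± 0.275 in the gefitinib group. Ephb3 went from 10.0% ± 0.144 to 5.92% ± 0.359 and 7.63% ± 0.521 in the same order, and Ephb4 from 22.4% ± 1.35 to 18.8% ± 0.873 and 22.2% ± 0.921. Non-member Ephb6 took 16.9% and 18.6% in the control libraries, 25.4% and 25.2% with TGF-alpha, and 28.2% and 30.5% in the gefitinib group. Ephb6 was the one tested EphB gene that rose in the first comparison, from 54.9 ± 4.08 to 75.0 ± 1.66 CPM (log2 0.45 ± 0.07 SE, edgeR adjusted p = 0.000152), and it rose further with gefitinib, to 89.997 ± 2.76 CPM (adjusted p = 0.00685 against TGF-alpha).

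On the ligand side, Efna1 went from 22.2% ± 0.325 of the sum in control to 31.3% ± 0.407 with TGF-alpha and 29.8% ± 0.498 in the gefitinib group. Efnb2 went from 21.8% ± 0.684 to 13.5% ± 0.134 and 16.4% ± 0.195, and Efnb1 from 29.2% ± 0.0792 to 24.5% ± 0.0842 and 25.9% ± 0.412. Per length, the ligand with the largest share was thus Efnb1 in control and Efna1 in both other groups. This ranking depends on the exon lengths used. In CPM without length, Efnb2 was the highest ligand in all 3 groups (means of 96.6, 59.2 and 76.1). Efna1 (26.3, 36.5 and 37.0 CPM) was below both ephrin-B members in each. With 2 libraries against 2 no exact permutation test of a share can pass 0.05, and the shares carry no test.

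**Figure D4:**
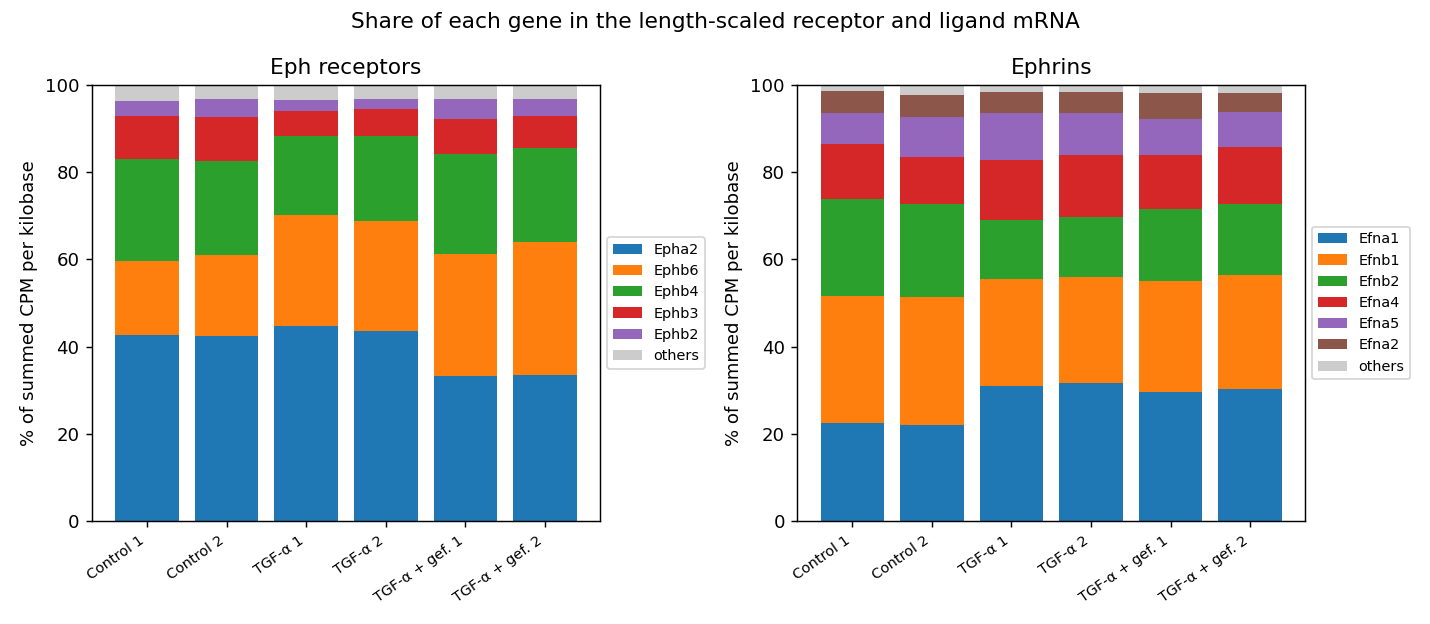
Share of each gene, in percent of the summed CPM per kilobase of all Eph receptors (left) and all ephrins (right), in each of the 6 libraries. The Ephb6 segment is wider with TGF-alpha than in control, the Epha2 segment is narrower in the gefitinib libraries, and Efna1 is wider and Efnb2 narrower in all 4 libraries that received the ligand.

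Promoter sequence is shown for the 4 members called in opposite directions in the first and second comparison (Ephb2, Ephb3, Ephb4 and Efnb2) and for Epha2, which was called only where gefitinib was added, since these carry the patterns described above. Each is the 250 bases before the RefSeq start in GRCm38.p6, 5′ to 3′ on the gene's strand, and capitals mark a match to a searched motif. The positions are chr4:136836013-136836262 (minus) for Ephb2, chr16:21204545-21204794 (plus) for Ephb3, chr5:137349859-137350108 (plus) for Ephb4, chr8:8661243-8661492 (minus) for Efnb2 and chr4:141300971-141301220 (plus) for Epha2.
Ephb2: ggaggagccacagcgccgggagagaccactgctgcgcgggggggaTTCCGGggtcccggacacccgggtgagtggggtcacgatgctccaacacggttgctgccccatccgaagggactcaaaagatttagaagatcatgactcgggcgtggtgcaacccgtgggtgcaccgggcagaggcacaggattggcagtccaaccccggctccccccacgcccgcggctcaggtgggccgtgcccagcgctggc
Ephb3: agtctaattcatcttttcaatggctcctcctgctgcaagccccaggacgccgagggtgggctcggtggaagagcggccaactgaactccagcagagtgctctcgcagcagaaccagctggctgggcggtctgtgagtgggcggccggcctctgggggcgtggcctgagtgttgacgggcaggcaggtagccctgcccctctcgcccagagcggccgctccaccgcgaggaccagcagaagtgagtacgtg
Ephb4: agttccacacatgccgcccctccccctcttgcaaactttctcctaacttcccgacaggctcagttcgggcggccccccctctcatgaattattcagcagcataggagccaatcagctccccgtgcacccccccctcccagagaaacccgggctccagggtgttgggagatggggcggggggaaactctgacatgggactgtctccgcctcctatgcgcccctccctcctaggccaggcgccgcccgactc
Efnb2: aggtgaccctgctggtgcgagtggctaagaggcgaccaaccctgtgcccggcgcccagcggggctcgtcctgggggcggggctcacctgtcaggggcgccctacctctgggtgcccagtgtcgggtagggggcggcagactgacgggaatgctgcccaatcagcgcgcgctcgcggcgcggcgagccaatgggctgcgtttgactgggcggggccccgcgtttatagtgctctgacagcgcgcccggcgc
Epha2: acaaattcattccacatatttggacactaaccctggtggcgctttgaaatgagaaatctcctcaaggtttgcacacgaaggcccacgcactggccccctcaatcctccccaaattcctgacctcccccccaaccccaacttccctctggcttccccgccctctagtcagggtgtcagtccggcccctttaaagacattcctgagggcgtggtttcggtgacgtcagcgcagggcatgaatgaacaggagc

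The motifs searched on both strands were TGANTCA, bound by AP-1, CCGGAA, the core bound by ETS factors, CACGTG, the E-box, and the CArG box bound by serum response factor. AP-1 and ETS factors are known as nuclear targets of ERK signalling downstream of EGFR. Over the 11 promoters of all 10 members (Efna1 has a pair of starts), 1 match was found. It was an ETS core 205 to 200 bases before the start of Ephb2, on the strand opposite to the gene. Among all 32851 promoters of this length 12.03% held CCGGAA, 6.75% TGANTCA, 6.02% CACGTG and 1.47% a CArG box. A match is a description of the letters in this window and not a binding site. The members' promoters were rich in G and C, from 55.6% in Epha2 to 74.8% in Efna5, where the median of all promoters was 52.4%. They held 9 to 32 CpG pairs, where the median was 6.

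Genes that act with Eph receptors and ephrins were taken from a list of 52, of which 51 were found by symbol and 44 were tested. With TGF-alpha 10 of the 44 rose and 5 fell (median log2 0.09). With gefitinib added, 6 were above and 14 below their level in the TGF-alpha group (median -0.07), and 1 was higher and 5 were lower than in control (median -0.03). By role, in the first comparison 1 of 9 exchange factors rose and 2 fell, and 2 of 11 adaptors and scaffolds rose and 2 fell. Of 7 partners of ephrin-B reverse signalling 1 rose, and of 10 phosphatases, kinases and proteases 5 rose and 1 fell. Called genes were 34.1%, 45.5% and 13.6% of the list in the 3 comparisons, beside 29.9%, 34.0% and 9.52% of all tested genes.

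Pik3r1, the regulatory subunit of phosphoinositide 3-kinase, had the smallest p of the list and went from 89.8 to 44.7 CPM (means of 2 libraries; log2 -1.005 ± 0.06 SE, edgeR adjusted p = 1.31e-08). Ptpn1, the tyrosine phosphatase PTP1B, rose from 76.7 to 124.8 CPM, and Ptpn13, a phosphatase with PDZ domains that binds ephrin-B, from 57.0 to 76.8 (adjusted p = 9.95e-07 and 0.000127). Sdcbp, which encodes the ephrin-B scaffold syntenin, rose from 131.2 to 195.0 CPM (adjusted p = 2.05e-05) while both ephrin-B members fell. Rasa1, the Ras GTPase-activating protein recruited by EphB receptors, rose from 25.1 to 37.5 CPM (adjusted p = 0.000227). The exchange factors Kalrn (16.8 to 8.62 CPM) and Itsn1 (129.8 to 103.1 CPM), both known partners of EphB2, fell as Ephb2 did (adjusted p = 5.70e-05 and 0.000468). Grb10, an adaptor that binds receptor kinases, went from 935 to 766 CPM (adjusted p = 0.000164).

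**Figure D5:**
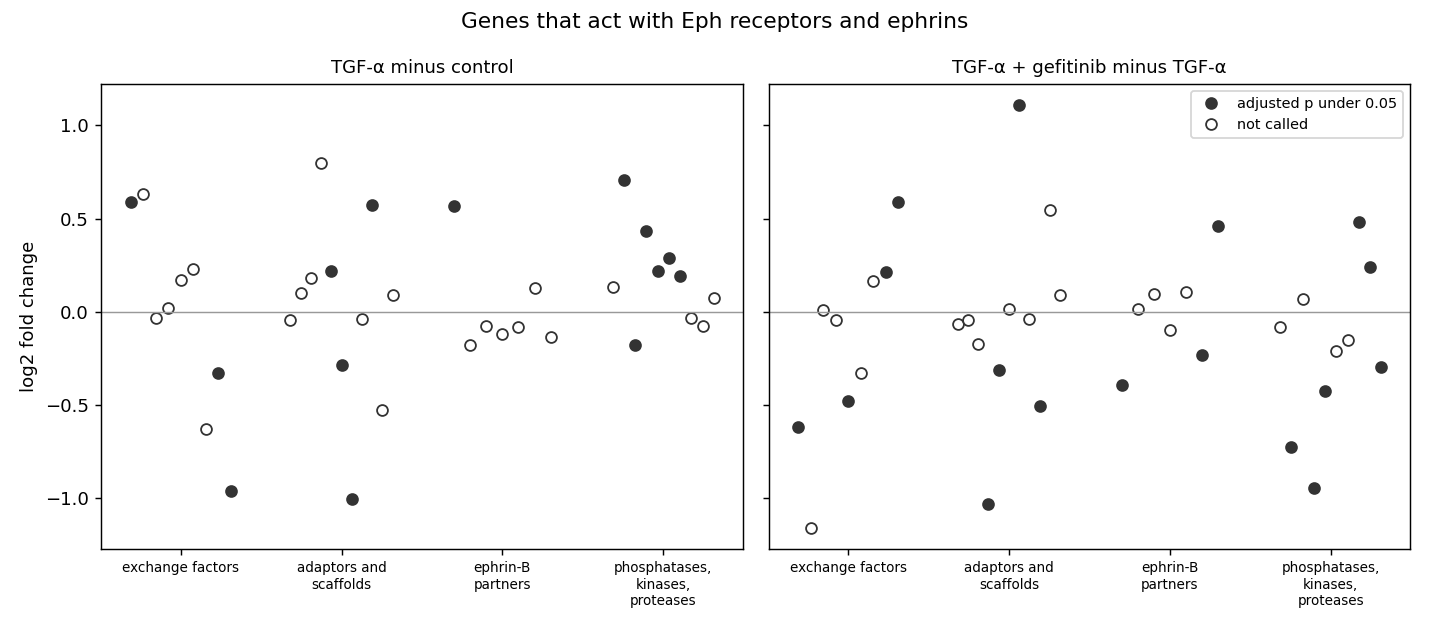
Log2 fold change (vertical axis) of tested genes in 4 roles that act with Eph receptors and ephrins for TGF-alpha against control (left) and TGF-alpha plus gefitinib against TGF-alpha (right); filled points have an adjusted p under 0.05. Filled points lie on both sides of 0 in most roles.

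Markers of other cells that express these genes moved with the groups, and their part in the members' changes was not tested. The osteoblast list had 8 genes, 6 of them tested. It summed to 408 to 413 CPM in control, 125 to 130 with TGF-alpha and 255 to 265 with TGF-alpha plus gefitinib. This order of groups was seen in Ephb3, Efnb2 and Efnb1. It was not particular to osteoblast markers, since the chondrocyte sum and the smooth muscle and pericyte sum had it too. Most of the osteoblast sum was Smpd3 (230, 39.8 and 141 CPM) and Ibsp (106.6, 44.0 and 59.8). Alpl had this order too (30.3, 4.16 and 20.9). Sp7 (16.6, 8.44 and 17.5) was lowest with TGF-alpha, and its gefitinib group was not called against control. Of the 6 tested genes 4 were called lower with TGF-alpha, and 4 higher and 2 lower with gefitinib added. Runx2 had another order (25.9, 29.6 and 19.2, called lower with gefitinib in both comparisons), as had Dmp1 (0.347, 0.941 and 0.183). Smooth muscle and pericyte markers (10 genes, 8 tested) summed to 1415 to 1497, 1104 to 1135 and 1365 to 1373 CPM. Acta2 (516, 152 and 454 CPM) and Cnn1 (15.9, 3.62 and 12.4) had that order, and both were called lower with TGF-alpha and higher with gefitinib added. Tagln instead rose with TGF-alpha (109.7, 129.6 and 93.1, edgeR adjusted p = 0.00913), and Cspg4 (586, 608 and 583) and Pdgfrb (222, 220.03 and 221) were not called. Neuron and glia markers (10 genes, 5 tested, Rbfox3 at 0) summed to 116 to 120, 77.9 to 82.5 and 151 to 153 CPM. Endothelial markers went the other way from Ephb4 and Efnb2, with sums of 24.6 to 27.1, 50.8 to 51.0 and 24.6 to 25.2 CPM. Most of that sum was Erg, an ETS factor also made by chondrocytes, at 21.1, 43.3 and 19.9 CPM, while Pecam1 and Kdr stayed at or below 0.108 and 0.0721 CPM as group means. Flt1, with at most 21 counts per library, moved as Erg did (0.103, 1.45 and 0.0343 CPM). Both were called higher with TGF-alpha and lower with gefitinib added. Macrophage and osteoclast markers (11 found of 12, 4 tested) summed to 70.2 to 71.1, 73.3 to 83.3 and 105.7 to 108.9 CPM. Most of that sum was Ctsk (64.3, 65.5 and 98.3), and C1qa, C1qb, C1qc, Fcgr1 and Tyrobp were at 0. Cd68 (1.54, 8.98 and 2.58) was called higher with TGF-alpha and lower with gefitinib added. Lyz2 (2.31, 0.762 and 2.75) was called in the opposite directions, and Acp5 (1.99, 2.79 and 3.29) was not called. Epithelial markers (6 genes, 1 tested) summed to 0.702 to 0.764, 2.67 to 2.69 and 0.320 to 0.480 CPM, and the tested one, Krt18, was called higher with TGF-alpha (0.213 to 2.17 CPM, adjusted p = 0.000184) and lower with gefitinib added (0.108 CPM, adjusted p = 6.41e-05).

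For the 3 members with the widest range of group means, the genes with the most similar profile were found among 11254 genes averaging at least 5 CPM, as the distance between log2 CPM values centred on each gene's mean over the 6 libraries. The nearest to Ephb2 were the mitochondrial carrier gene Slc25a33 (distance 0.14; 11.1, 6.88 and 13.3 CPM in the control, ligand and gefitinib groups) and the nucleoside transporter gene Slc29a3 (0.21; 28.0, 18.6 and 30.4). The nearest to Ephb3 were Adamts12, a secreted metalloproteinase gene (0.13; 27.1, 15.4 and 20.7), and Sema5a, which encodes a semaphorin (0.14; 32.5, 19.8 and 26.5). The nearest to Efnb2 were Peg3, an imprinted zinc finger gene (0.10; 2694, 1654 and 2105), and Slit3, a ligand of Robo guidance receptors (0.10; 239.5, 149.0 and 183.6).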

How the data were processed

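The authors deposited 1 table of raw read counts per gene, 1 column per library and not normalized. Per the submitters' processing notes the build is GRCm38. The sources used here do not give the aligner, counter, annotation or strand setting. The analysis used edgeR 4.0.16 in R 4.3.3: filterByExpr (minimum count 10), TMM scaling, and a quasi-likelihood fit (glmQLFit, glmQLFTest) over the 6 libraries with a group term alone, leaving 3 residual degrees of freedom. Tests were two-sided, with Benjamini-Hochberg adjustment over 15362 genes. SE is the absolute log2 fold change divided by the square root of F, and 95% intervals use its total degrees of freedom. Exon lengths came from GENCODE annotation and promoters from RefSeq (GRCm38.p6), which held all 10 members. The fit was tested on simulated data. Members and gene lists were chosen with earlier results of these data known. All members were named; of the partner list, the 8 called genes with the smallest p with TGF-alpha. 1 role group of that list is not reported here, although its genes stay in the totals. Alternatives were DESeq2 1.42.0, its size factors, no count filter, only the libraries compared, the replicate number as a block, a test against a 1.2-fold change, each library left out and, added after seeing the data, library totals without a scaling factor.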

Additional observations from a re-analysis of the deposited data

How the results depend on the processing

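No called fold change of a member changed direction under any alternative in the 3 comparisons. Of 390 fold changes recomputed for single members 368 stayed on their side of the threshold and 22 lost their call. The test against a 1.2-fold change took 11 of these. With TGF-alpha against control it left 1 member higher and 3 lower, and 2319 genes in all. With TGF-alpha plus gefitinib against TGF-alpha it left 1 higher (Ephb2), 0 lower and 2669 genes. Against control it left 0 higher, 0 lower and 277 genes. At an unadjusted p under 0.05 that edgeR test (glmTreat) gave 3 higher and 1 lower with TGF-alpha plus gefitinib against TGF-alpha, and 1 higher and 3 lower against control. DESeq2 and the replicate block each left 1 member higher with TGF-alpha, because Efna5 lost its call (adjusted p = 0.149 with DESeq2 and 0.0594 with the block). DESeq2 called 946 genes with TGF-alpha plus gefitinib against control, where edgeR called 1463. Leaving out 1 library at a time, which leaves fewer samples, gave 1 to 2 members higher with TGF-alpha against control and 649 to 1291 genes in all for TGF-alpha plus gefitinib against control. The block changed no other call of a member. Deviations of same-numbered replicates over all tested genes correlated at -0.02 to 0.01 between groups. Counting noise in genes with few counts pulls this value toward 0, so it cannot tell whether same-numbered libraries were paired. Library totals without a scaling factor put the median of all tested genes at 0.07 (log2) at most and changed no call of a member. Its split of all called genes was 3034 higher and 1605 lower with TGF-alpha against control, and 1332 higher and 388 lower with TGF-alpha plus gefitinib against control. Epha3 and Epha4, with 53 to 146 counts per library, had the widest intervals among the members.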
